A study of Mus musculus with 8 samples.

Results

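A set of 10 genes of Wnt signaling was examined in resting and proliferative chondrocytes of the mouse growth plate. The genes were chosen by symbol and were found by their Ensembl identifiers among the 43629 genes of the count table, of which 17492 had a count in any library. The set holds the 6 secreted proteins *Wif1*, *Frzb*, *Sfrp1*, *Sfrp5*, *Dkk3* and *Notum*, the intracellular scaffold *Axin2*, β-catenin (*Ctnnb1*) and the transcription factors *Lef1* and *Tcf7l2*. All 10 genes were in the table, and together they held 1910 counts, or 0.0571% of all counts.

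Wnt proteins are secreted ligands that bind Frizzled and Lrp receptors on the cell surface. Without ligand, β-catenin is bound by a destruction complex built on the Axin scaffolds and is degraded, and with ligand it is stabilized, enters the nucleus and acts with Tcf/Lef transcription factors. *Axin2* is itself a target of this pathway and is widely used to mark cells that respond to Wnt, and in the growth plate Wnt activity and its secreted inhibitors are known to shape the reserve of chondrocytes and their maturation.

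All 8 libraries came from Axin2CreERT2;R26RTdTomato mice, in which a Cre recombinase driven by the *Axin2* gene makes cells express TdTomato after tamoxifen. The mice received 3 daily injections of tamoxifen from P23 and were collected at P30, and both zones of every mouse shared this genotype and treatment. TdTomato-positive chondrocytes of the resting zone were captured by laser from 8 μm frozen sections, and unlabeled, flattened chondrocytes at least 50 μm from the secondary ossification center were captured as the proliferative zone. Each of 4 mice gave 1 library per zone (n = 4 per zone). Mice 1 and 2 were male, and mice 6 and 13 were female. The sample labels name tibiae, and the methods of the study name distal femur and proximal tibia. The captured RNA was amplified by in vitro transcription before library preparation. Because the *Axin2* promoter selected the resting cells, the values of *Axin2* are given as a description without a test.

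Few reads were counted per library, with 192882 to 462044 counts in the resting zone and 249284 to 631474 counts in the proliferative zone. The number of reads sequenced before counting was not examined. CPM here means counts per library, rescaled so that all libraries have the same size. For a gene with 0 counts in a library, the limit of 3 counts lay at 6.49 to 15.6 CPM in resting zone libraries and at 4.75 to 12.0 CPM in proliferative zone libraries. These limits and the counting intervals given below take in counting error alone, since the RNA was amplified and its reads carry no molecular identifiers. Levels of genes are CPM with edgeR's TMM factors. In tissue captured in bulk, fewer cells of a type and less RNA per cell cannot be told apart.

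The strand of the counted reads limits what each value stands for. *mt-Nd6*, the only messenger RNA encoded on the light strand of mitochondrial DNA, was the most abundant gene with 137491 counts, against 37887 counts on the other 12 mitochondrial messenger RNAs. *Tsix*, the antisense partner of *Xist*, had 18683 counts in the female libraries and *Xist* had 1367. Among 816 pairs of a coding gene and a noncoding gene overlapping it on the opposite strand, with at least 50 counts in a pair, 359 (44.0%) had more counts on the noncoding gene. The library kit keeps the strand, and the strand setting of the counting is not given in the sources used here. The values below are those of the counts as deposited, and the share of reads of each gene's own strand was not tested. *Lef1*, *Axin2*, *Notum* and *Ctnnb1* overlap exons on the opposite strand.

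The promoters of *Wif1* and *Lef1* are shown because these genes differed most clearly between the zones. RefSeq promoter windows of 300 bases on GRCm38.p6 were found for 7 of the 10 genes, in 12 windows, and *Sfrp1*, *Dkk3* and *Notum* had no entry. The windows were searched on both strands for the Tcf/Lef motif, taken as CTTTG followed by 2 letters that are each A or T. Only 2 of the 12 windows held a match, 1 at a start of *Lef1* inside the gene and 1 at a start of *Tcf7l2* inside the gene. In all 32851 promoter windows, 16.9% held a match. Each sequence below is written 5′ to 3′ on the plus strand and ends before the annotated start of transcription, and capitals mark the match on the minus strand.
Wif1, chr10:121033754-121033959, no match: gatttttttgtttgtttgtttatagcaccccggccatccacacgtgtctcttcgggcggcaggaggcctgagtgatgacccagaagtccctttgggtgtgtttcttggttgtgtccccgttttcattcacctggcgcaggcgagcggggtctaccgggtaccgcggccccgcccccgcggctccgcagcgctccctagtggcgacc
Lef1, first start, chr3:131110047-131110296, no match: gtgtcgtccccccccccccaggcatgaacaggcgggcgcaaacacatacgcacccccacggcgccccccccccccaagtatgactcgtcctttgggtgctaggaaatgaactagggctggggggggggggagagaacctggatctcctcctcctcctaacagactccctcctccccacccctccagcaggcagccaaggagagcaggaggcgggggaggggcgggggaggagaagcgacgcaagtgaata
Lef1, internal start, chr3:131156044-131156293, 1 match: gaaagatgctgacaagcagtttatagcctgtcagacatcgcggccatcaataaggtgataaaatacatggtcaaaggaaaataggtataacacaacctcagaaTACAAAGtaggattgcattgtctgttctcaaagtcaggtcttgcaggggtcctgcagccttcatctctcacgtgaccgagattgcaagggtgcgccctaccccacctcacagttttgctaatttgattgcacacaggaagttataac
The upstream sequences of *Wif1* and of the first *Lef1* start were rich in G and C, with 63% and 67.3% over the whole windows against a median of 52.7% over all windows, and the internal *Lef1* window had 43.7%. A match is a description of the letters and not a site of binding.

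To ask which genes of the set differed between the zones, edgeR's quasi-likelihood test was run over all genes with the mouse as a block. One fit (the filtered fit) held the 3793 genes left by edgeR's filter, and a second fit held the 11273 genes with at least 10 counts over the 8 libraries (the wide fit). A call required an adjusted p below 0.01 together with a log2 fold change, resting over proliferative, above 1 or below -1. In the wide fit, which held 8 of the 10 genes, *Wif1* and *Lef1* were called higher in the resting zone and 6 genes were not called, where the background share of calls among all genes was 5.96% toward the resting zone and 3.88% toward the proliferative zone. In the filtered fit, which held *Wif1*, *Lef1*, *Tcf7l2* and *Ctnnb1*, *Wif1* alone was called, against a background of 10.1% in its direction and 6.06% in the other. *Wif1* and *Lef1* passed that filter through their resting zone libraries alone, so their presence in it is tied to their difference as well, and nothing is read from the count. The median log2 fold change of the 8 genes was 0.90, also with *Dkk3* set at the bound given below, and that of all genes in the wide fit was 0.07. *Wif1* and *Dkk3* reached the minimum of 10 counts through the resting zone alone, so their presence in the wide fit is tied to their difference. Nothing is therefore read from this median or from the count of calls in the wide fit. The other 6 genes had log2 fold changes of -0.74 (*Ctnnb1*), -0.43 (*Sfrp1*), -0.17 (*Frzb*), 0.71 (*Sfrp5*), 1.09 (*Tcf7l2*) and 2.42 (*Lef1*). *Axin2* and *Notum* had fewer than 10 counts and were in neither fit.

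**Figure D1:**
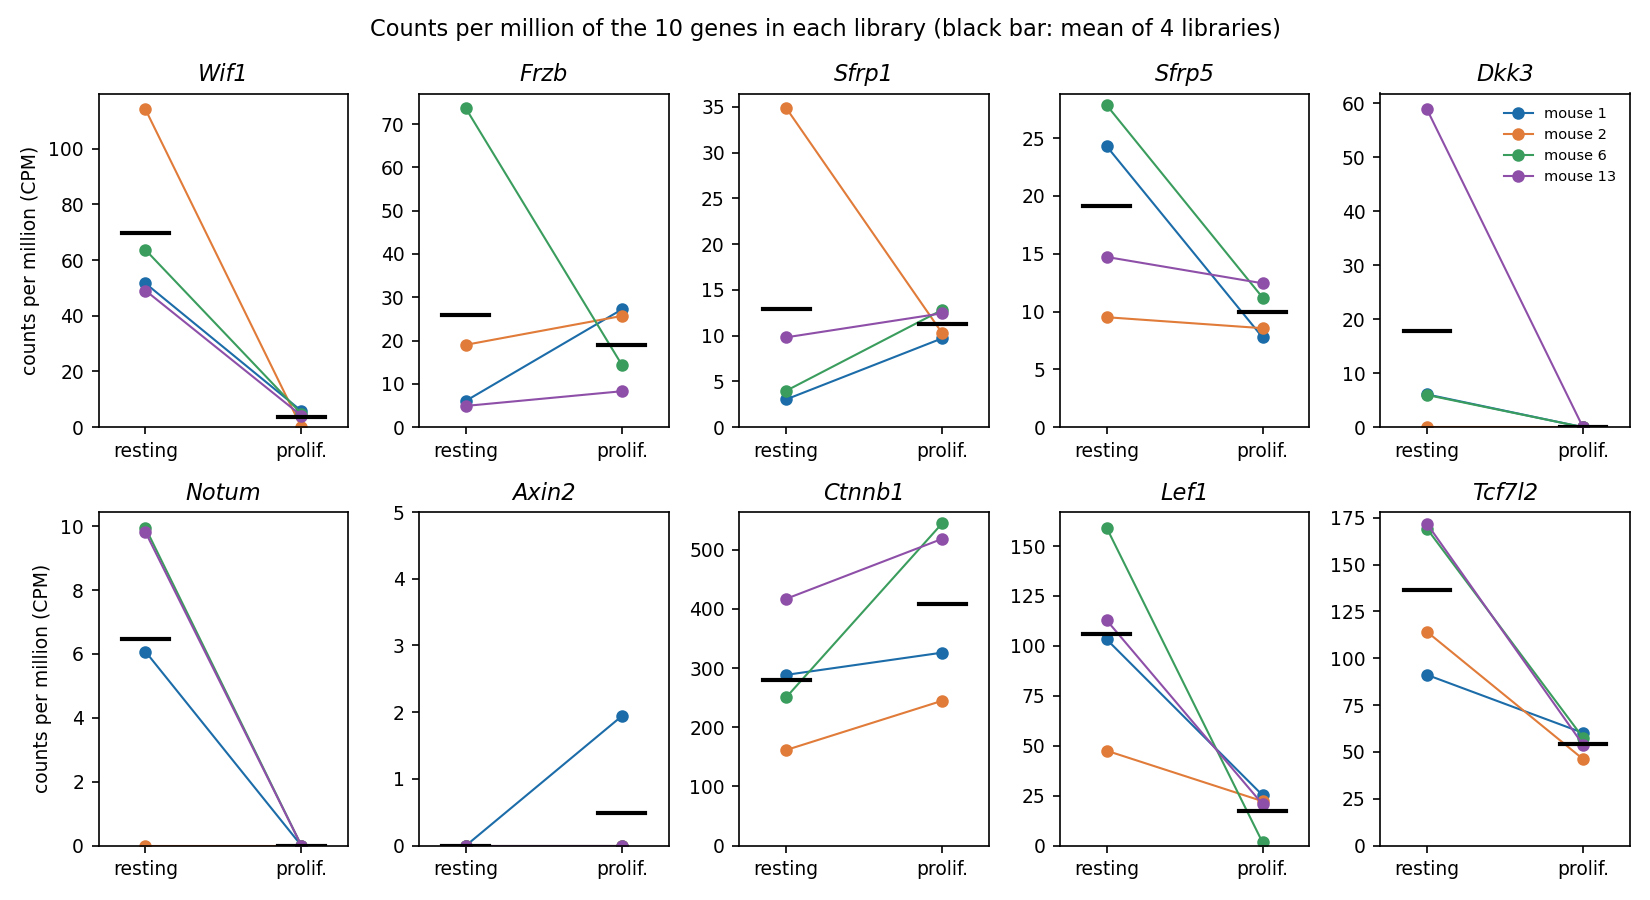
CPM of the 10 genes (y axis, linear, a separate scale for each gene) in the resting and proliferative zone libraries (x axis), with a line joining the 2 libraries of a mouse and a black bar at the mean of 4 libraries. For *Wif1*, *Lef1* and *Tcf7l2* the lowest resting zone value was above the highest proliferative zone value, and *Ctnnb1* was lower in the resting zone of each mouse.

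*Wif1* (ENSMUSG00000020218, GRCm38 chromosome 10, 121033960 to 121100650) encodes Wnt inhibitory factor 1, a secreted protein that binds Wnt ligands outside the cell. Its counts in mice 1, 2, 6 and 13 were 17, 36, 32 and 10 in the resting zone and 3, 0, 3 and 1 in the proliferative zone. These counts correspond to 51.6, 114, 63.7 and 49.1 CPM against 5.82, 0, 4.81 and 4.15 CPM. The zones did not overlap, and mouse 2 had both the highest resting level and no count in the proliferative zone. The log2 fold change of *Wif1* was 4.15 (SE 0.74, adjusted p = 0.00181, edgeR's quasi-likelihood test) in the filtered fit and 3.96 (SE 0.72, adjusted p = 8.61e-06) in the wide fit. Without mouse 2 the log2 fold change was 3.38 in the filtered fit and 3.21 in the wide fit. Without mouse 13, the adjusted p in the filtered fit was 0.0153 at a log2 fold change of 4.26, and in the wide fit *Wif1* was called without any 1 of the mice, with a highest adjusted p of 0.00283. The study cites *Wif1* as a resting chondrocyte marker reported earlier. It also named *Wif1* from these same libraries, so the call made here is not independent evidence of its direction.

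The remaining secreted proteins had few counts. *Frzb* (ENSMUSG00000027004, chromosome 2, 80411970 to 80447625), *Sfrp1* (ENSMUSG00000031548, chromosome 8, 23411502 to 23449632) and *Sfrp5* (ENSMUSG00000018822, chromosome 19, 42197971 to 42202252) belong to the secreted Frizzled-related proteins, which carry a domain like the Wnt-binding part of Frizzled and can hold Wnt ligands away from the receptor. *Frzb*, which is known from cartilage, had 6.08, 19.0, 73.6 and 4.91 CPM in the resting zone and 27.2, 25.7, 14.4 and 8.29 CPM in the proliferative zone of mice 1, 2, 6 and 13. Its zones overlapped, and only mouse 6, with 37 resting zone counts, had the higher value in the resting zone. The log2 fold change of *Frzb* in the wide fit was -0.17 (SE 0.75, adjusted p = 0.930), and it was 0.31 without the block, 0.16 with scaling by library size alone, 0.55 without mouse 1 and 0.06 without mouse 2. Without mouse 6 it was -1.20.

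*Sfrp1* had 3.04, 34.9, 3.98 and 9.81 CPM in the resting zone and 9.71, 10.3, 12.8 and 12.4 CPM in the proliferative zone. The resting zone of mouse 2, with 11 counts, was the only library above 12.8 CPM, and it was the only resting zone library above its own proliferative zone. The log2 fold change of *Sfrp1* was -0.43 (SE 0.90, adjusted p = 0.833), and it was 0.14 without mouse 6 and -1.35 without mouse 2. *Sfrp5* had 24.3, 9.51, 27.9 and 14.7 CPM against 7.77, 8.56, 11.2 and 12.4 CPM. It was higher in the resting zone of 4 of 4 mice, but the zones overlapped, and its log2 fold change of 0.71 (SE 0.80, adjusted p = 0.657) was within its error.

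*Dkk3* (ENSMUSG00000030772, chromosome 7, 112116017 to 112159057) encodes a secreted protein of the Dickkopf family, whose other members block the Lrp co-receptors. It had 2, 0, 3 and 12 counts in the resting zone, or 6.08, 0, 5.97 and 58.9 CPM, and no count in the proliferative zone. The resting zone of mouse 13 held 12 of the 17 counts, and without that mouse *Dkk3* fell under the minimum of the wide fit. Set against 3 counts over the whole proliferative zone, the level of *Dkk3* in the resting zone was 9.02-fold higher, or 2.74-fold without mouse 13. This bound takes the resting zone counts as exact and leaves out the spread between mice. The adjusted p of *Dkk3* in the wide fit was 0.0391 (edgeR's quasi-likelihood test), which missed the threshold. *Dkk3* was called there with edgeR's likelihood ratio test, with an adjusted p of 0.00597, and without mouse 1, 2 or 6 its adjusted p in the quasi-likelihood test ranged from 0.0280 to 0.103.

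*Notum* (ENSMUSG00000042988, chromosome 11, 120653788 to 120661175) encodes a secreted enzyme that removes the lipid from Wnt proteins and thereby inactivates them. It had 2, 0, 5 and 2 counts in the resting zone, or 6.08, 0, 9.95 and 9.81 CPM, and no count in the proliferative zone. On the same limit *Notum* was 4.77-fold higher in resting zone libraries, or 2.29-fold without mouse 6, which held 5 of the 9 counts. Here too the resting zone counts are taken as exact. The adjusted p of *Notum* was 0.364 (edgeR's quasi-likelihood test) in a fit over all 17492 genes with a count. Its exons overlap those of *Notumos* and *Myadml2os* on the opposite strand, both without a count.

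Summed over the 6 secreted proteins, CPM lay between 97.2 and 185 in the resting zone and between 37.3 and 50.5 in the proliferative zone. Without *Wif1*, the sums lay between 45.6 and 121 in the resting zone and between 33.2 and 44.7 in the proliferative zone. The lowest resting zone sum was that of mouse 1, where 1 count stood for 3.04 CPM, so no separation is read from these sums. In mouse 2, *Sfrp1* held 34.9 of 63.4 CPM in the resting zone. *Frzb* held 73.6 of 121 CPM in mouse 6 and *Dkk3* 58.9 of 98.1 CPM in mouse 13. *Frzb* and *Sfrp1* were lower in the resting zone of 3 of 4 mice. These sums are not divided by gene length and were not tested.

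*Axin2* (ENSMUSG00000000142, chromosome 11, 108920349 to 108950783) encodes a scaffold of the destruction complex, and its promoter drove the Cre recombinase that marked the resting cells. A single count fell on it in all 8 libraries, in the proliferative zone of mouse 1 (1.94 CPM), and it had no count in any resting zone library. Over the resting zone as a whole, a count of 0 allows up to 2.33 CPM of reads on the counted strand. As the share of reads from its own strand was not tested, this sets no limit on *Axin2* transcripts in the labeled cells. *Gm11670*, which overlaps 209 bases of its exons on the opposite strand, had no count either.

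*Ctnnb1* (ENSMUSG00000006932, chromosome 9, 120929216 to 120960507) encodes β-catenin, which carries the Wnt signal to the nucleus and also links cadherins to the cytoskeleton. It had 289, 162, 251 and 417 CPM in the resting zone and 326, 245, 545 and 518 CPM in the proliferative zone of mice 1, 2, 6 and 13. The resting zone was lower in 4 of 4 mice, but the zones overlapped. The log2 fold change was -0.55 (SE 0.26, adjusted p = 0.147) in the filtered fit and -0.74 (SE 0.31, adjusted p = 0.0920) in the wide fit, and *Ctnnb1* was not called under any alternative that was run.

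*Ulk4* (ENSMUSG00000040936) lies on the opposite strand of *Ctnnb1* and overlaps 759 bases of its exons, and it was chosen for mention after its values were seen. With 60181 counts it was the fifth most abundant gene, and it held 53.1 times the counts of *Ctnnb1*. It had 14724, 9065, 9116 and 12376 CPM in the resting zone and 23855, 27374, 19499 and 20410 CPM in the proliferative zone. Its zones did not overlap, and it was called lower in the resting zone (log2 fold change -1.03, SE 0.22, adjusted p = 0.00547 in the filtered fit), and this call was lost without any 1 of the mice. In the wide fit its log2 fold change was -1.22 (adjusted p = 2.78e-05), and it was called without any 1 of the mice. *Ulk4* and *Ctnnb1* were thus both lower in the resting zone of each mouse, and how many of these counts came from *Ctnnb1* transcripts was not tested.

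**Figure D2:**
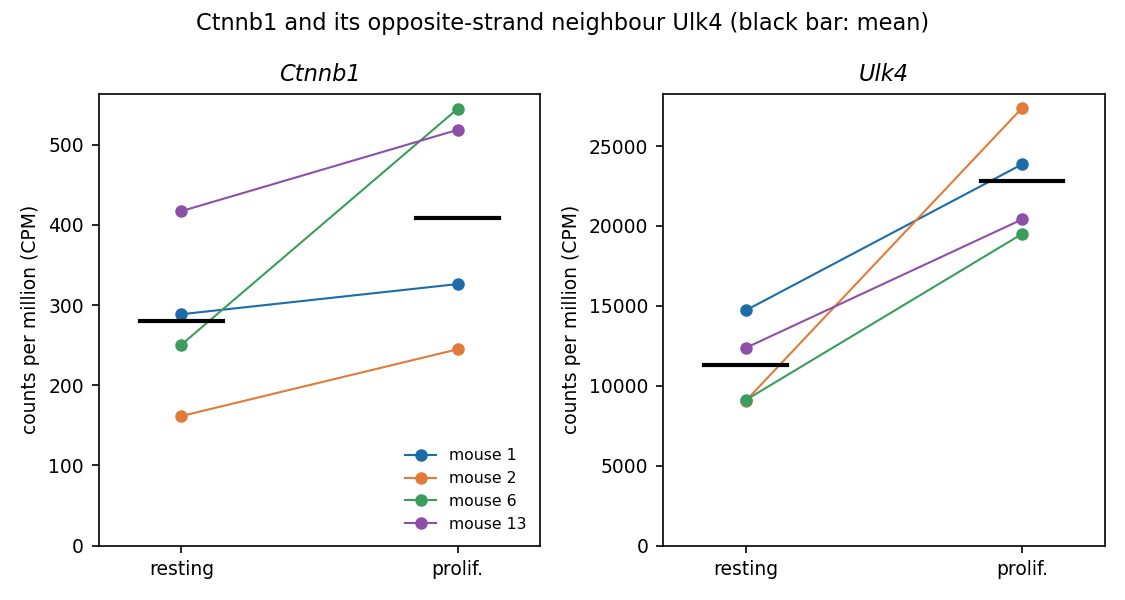
CPM (y axes, linear, from 0) of *Ctnnb1* and of *Ulk4*, its neighbour on the opposite strand, in the resting and proliferative zone libraries (x axis), with a line joining the libraries of a mouse and a black bar at the mean of 4. Both genes were lower in the resting zone of 4 of 4 mice, and the zones overlapped for *Ctnnb1* only.

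*Lef1* (ENSMUSG00000027985, chromosome 3, 131110471 to 131224356) encodes lymphoid enhancer binding factor 1, a DNA-binding partner of β-catenin that is also known from osteoblasts and lymphoid cells. Its counts were 34, 15, 80 and 23 in the resting zone and 13, 13, 1 and 5 in the proliferative zone of mice 1, 2, 6 and 13. In CPM these were 103, 47.5, 159 and 113 against 25.2, 22.3, 1.60 and 20.7. The zones did not overlap, mouse 6 had both the highest and the lowest library, and mouse 2 had the smallest difference. The log2 fold change of *Lef1* was 2.42 (SE 0.55, adjusted p = 0.000545, edgeR's quasi-likelihood test) in the wide fit. In the filtered fit it was 2.61 (SE 0.68) with an adjusted p of 0.0146, which missed the threshold. *Lef1* was called in that fit without the block (adjusted p = 0.00483) and without mouse 2 (adjusted p = 0.00568). It was also called there with the likelihood ratio test (adjusted p = 0.000699) and with DESeq2 (adjusted p = 0.00126). Without mouse 1, 6 or 13 it was not called there (adjusted p from 0.0237 to 0.0749). In the wide fit the call was lost without mouse 6, at a log2 fold change of 1.70 (adjusted p = 0.0277), and without mouse 13, at 2.50 (adjusted p = 0.0308), and without mouse 2 the log2 fold change was 3.01. The antisense gene *Gm43352* overlaps 1208 bases of its exons and was not in the count table.

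*Tcf7l2* (ENSMUSG00000024985, chromosome 19, 55741820 to 55933654) encodes transcription factor 7-like 2, which binds the same motif as *Lef1*. It had 91.1, 114, 169 and 172 CPM in the resting zone and 60.2, 46.2, 57.7 and 53.9 CPM in the proliferative zone of mice 1, 2, 6 and 13. The zones did not overlap, and the proliferative zone libraries lay close together (54.5 ± 6.09 CPM, SD, n = 4) beside 137 ± 40.3 CPM (SD, n = 4) in the resting zone. The log2 fold change was 1.27 (SE 0.35, adjusted p = 0.0194) in the filtered fit and 1.09 (SE 0.41, adjusted p = 0.0562) in the wide fit, so that *Tcf7l2* was not called in either. It was called in the filtered fit without the block, with an adjusted p of 0.00761, and with the likelihood ratio test, with an adjusted p of 0.00299. It was also called in the wide fit with scaling by library size alone, with a log2 fold change of 1.40 and an adjusted p of 0.00682. That scaling also raised the median log2 fold change of all genes in the wide fit by 0.31.

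**Figure D3:**
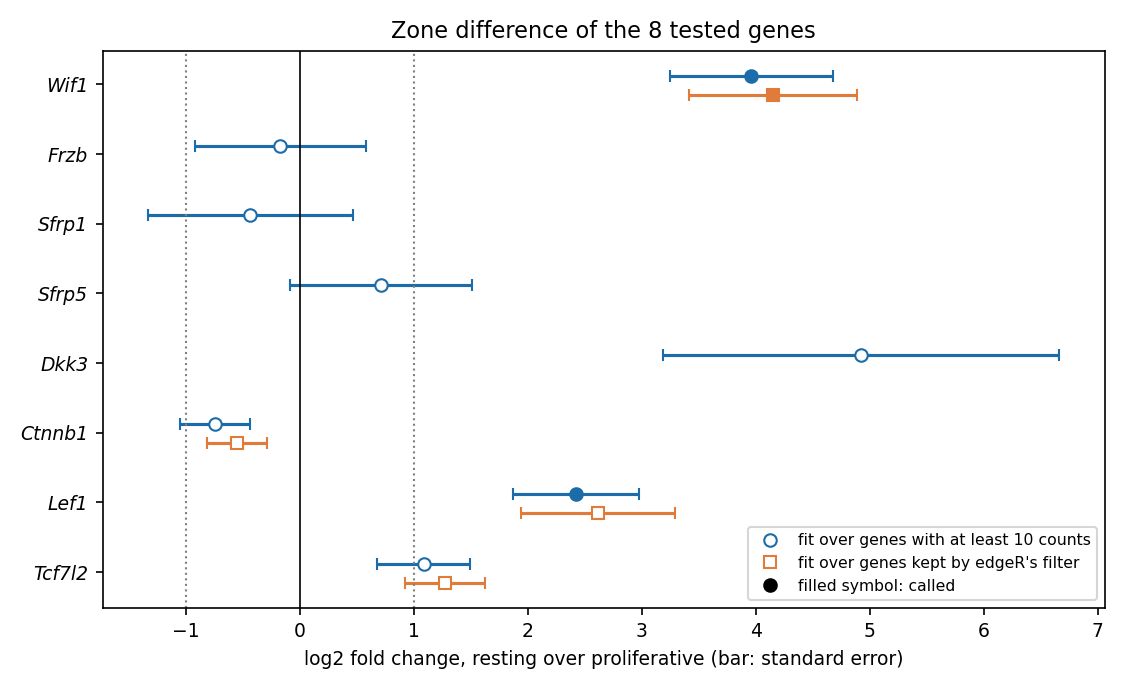
Log2 fold change, resting over proliferative zone (x axis), of the 8 genes tested (y axis), with bars of 1 standard error. Circles are the wide fit, squares the filtered fit, filled symbols mark called genes and dotted lines mark -1 and 1. *Wif1* was called in both fits and *Lef1* in the wide fit, while *Dkk3* has a fitted value against a zone without counts and the widest bar.

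With no overlap between the zones and the resting zone higher, *Wif1*, *Lef1* and *Tcf7l2* were 3 of the 8 genes in the wide fit, where 12.5% of all its genes had this pattern. None of the 8 had the opposite pattern, which 7.52% of all genes had. Because *Wif1* and *Dkk3* entered the wide fit through the resting zone alone, nothing is read from this count, and without them it was 2 of 6. The ratio of *Lef1* to *Tcf7l2* CPM, which is a ratio of levels not divided by length, was 1.13, 0.417, 0.941 and 0.657 in the resting zone and 0.419, 0.481, 0.0278 and 0.385 in the proliferative zone of mice 1, 2, 6 and 13. Mouse 2 was thus the only mouse in which the ratio was not higher in the resting zone.

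Levels were compared between genes as mean CPM per kilobase of exon. Whether counts of the amplified RNA scale with exon length was not tested. In the resting zone the order was *Ctnnb1* (53.8 ± 20.4), *Wif1* (28.7 ± 12.5), *Tcf7l2* (15.6 ± 4.59), *Lef1* (12.0 ± 5.21), *Sfrp5* (10.1 ± 4.45), *Frzb* (8.00 ± 10.0), *Dkk3* (5.28 ± 8.21), *Sfrp1* (2.96 ± 3.42), *Notum* (2.68 ± 1.94) and *Axin2* (0), each as mean ± SD over n = 4 libraries. Of the neighbours in this order, only *Wif1* and *Tcf7l2* did not overlap over the libraries. Of the 6 secreted proteins, *Wif1* thus had the highest mean of counts per length in the resting zone. The share of reads from each gene's own strand was not tested, so no order of transcripts is read from these levels.

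In the proliferative zone *Ctnnb1* came first with 78.7 ± 28.2 CPM per kilobase, followed by *Tcf7l2* (6.21 ± 0.694), *Frzb* (5.84 ± 2.80), *Sfrp5* (5.26 ± 1.16), *Sfrp1* (2.59 ± 0.354), *Lef1* (1.99 ± 1.22) and *Wif1* (1.52 ± 1.05), each as mean ± SD over n = 4 libraries. *Axin2* had its single count, and *Dkk3* and *Notum* had none. *Wif1* thus moved from the second place in the resting zone to the seventh, and *Frzb* from the sixth to the third. Without division by exon length, 5 of the 10 genes in the resting zone and 8 of the 10 in the proliferative zone kept their rank, and in the resting zone *Wif1* then had the fourth place and *Frzb* the fifth. Neighbours that did not overlap were *Ctnnb1* and *Tcf7l2*, and *Sfrp5* and *Sfrp1*.

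The zone difference was also compared between male and female mice, 2 of each, with the interaction of zone and sex in the wide fit. With edgeR's quasi-likelihood test 21 of all genes had an adjusted p below 0.05, and of the 8 genes described here 0 had one, as with the likelihood ratio test. At an unadjusted p below 0.05 there was 1 with the quasi-likelihood test and 2 with the likelihood ratio test. With the quasi-likelihood test this was *Lef1*, whose log2 fold change was 2.66 higher in females than in males (SE 1.11, adjusted p = 0.827). Its resting and proliferative zone counts were 80 and 1 in mouse 6 but 23 and 5 in mouse 13, the other female.

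Genes whose levels followed those of the 4 genes in the filtered fit most closely were found by Pearson's r of log2 CPM over the 8 libraries, among 3793 genes. These values are a description, and because the libraries fall into 2 zones, any gene that differs between the zones in the same direction gains a high r. The closest genes were *Nr1i3* (0.990), *Lrrc61* (0.980) and *Ifngr1* (0.980) for *Wif1*, and *Nfix* (0.967), *Tmem175* (0.961) and *Acp5* (0.959) for *Lef1*. *Acp5* encodes the acid phosphatase of osteoclasts. For *Tcf7l2* they were *Aste1* (0.988), *Add1* (0.975) and *Vcl* (0.971), and for *Ctnnb1* they were *Rras2* (0.950), *Unkl* (0.935) and *Col12a1* (0.934). Among the 4 genes themselves, r was 0.882 for *Wif1* and *Tcf7l2*, 0.806 for *Lef1* and *Tcf7l2*, and 0.739 for *Wif1* and *Lef1*, whereas *Ctnnb1* had -0.509 with *Wif1*.

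The other genes of the pathway were read from 8 lists by role, with 112 genes in the count table. Of these, 23 had no count in any library and 68 were in the wide fit, where 3 were called toward the resting zone, 3 toward the proliferative zone and 62 were not called. Their median log2 fold change was 0.11, beside 0.07 over all genes. Over all genes of this fit the shares called were 5.96% and 3.88%, so that 3 of 68 in each direction is near the background and is not a result about the pathway. *Sfrp4*, *Tnfrsf19*, *Rspo3* and *Rspo4* reached the minimum of 10 counts through the zone in which they were higher, so that their presence in the fit is tied to their difference. *Cd44* and *Prickle1* had at least 10 counts in each zone. In the filtered fit, 17 of them were tested and 2 were called, *Cd44* and *Prickle1*, against the background of 10.1% and 6.06%, and both passed its filter through the zone in which they were higher. The call of *Prickle1* there was lost without mouse 13 (adjusted p = 0.0150).

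Among 18 ligand genes, 11 had no count, and of the 6 in the wide fit 0 were called by edgeR's quasi-likelihood test, the likelihood ratio test or DESeq2, with 1 at an unadjusted p below 0.05. Their highest total was 46 counts, for *Wnt4*, and no direction is read from them. Of the R-spondins, secreted proteins that enhance Wnt signaling through Lgr receptors, *Rspo3* and *Rspo4* were called lower in the resting zone. *Rspo3* had 0, 0, 3 and 0 counts in the resting zone and 13, 17, 13 and 4 in the proliferative zone of mice 1, 2, 6 and 13. Its counts summed over a zone and divided by the summed library totals gave a ratio of proliferative to resting of 9.84 (95% counting interval 3.17 to 49.4, adjusted p = 0.00559, edgeR's quasi-likelihood test in the wide fit). *Rspo4* had no count in the resting zone and 9, 7, 18 and 2 in the proliferative zone (adjusted p = 0.00234, same test and fit). With 3 counts set for the whole resting zone, its level there was 7.54-fold lower, or 3.49-fold without mouse 6. This takes the proliferative zone counts as exact. The call of *Rspo3* was lost without mouse 1, 2 or 13 (adjusted p from 0.0381 to 0.0734), that of *Rspo4* without mouse 1, 6 or 13 (adjusted p from 0.0148 to 0.0664), and the 3 resting zone counts of *Rspo3* were all in mouse 6. Its fitted log2 fold change was -3.73 with all mice, between -3.23 and -3.56 where the call was lost, and -6.23 without mouse 6, where no resting zone count was left and the fitted value depends on the prior count. DESeq2 called neither of these R-spondins. The *Rspo3* exons overlap those of *Gm48159* on the opposite strand, and the receptor gene *Lgr5* had no count.

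Of 9 receptor genes, 19 genes of the destruction complex and Dishevelled, and 15 nuclear partners in the wide fit, 0 were called by edgeR's quasi-likelihood test, with 6 of these 43 genes at an unadjusted p below 0.05, and 2 were called by the likelihood ratio test and 0 by DESeq2. Of 6 other antagonists in the wide fit, 1 was called, *Sfrp4*, a further secreted Frizzled-related protein. It had 5, 14, 11 and 12 counts in the resting zone and 1, 1, 0 and 0 in the proliferative zone, a ratio of resting to proliferative of 33.4 for the summed counts over summed totals (95% counting interval 8.69 to 285, adjusted p = 0.000478), and its call was lost without mouse 13 (adjusted p = 0.0205). Its fitted log2 fold change was 4.42 with all mice, 4.08 without mouse 13 and 5.20 without mouse 1, where it was called. *Sfrp2* of the same family had 12, 5, 10 and 10 counts against 5, 3, 2 and 2 without overlap between the zones in CPM, and it was not called (log2 fold change 1.91, adjusted p = 0.0854), nor were *Frzb*, *Sfrp1* and *Sfrp5*. *Sfrp2* was named after its values were seen.

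Among 8 genes in the wide fit from a list of common targets of the pathway, 2 were called toward the resting zone and 1 toward the proliferative zone, beside 5.96% and 3.88% of all genes. *Tnfrsf19*, 1 of these, entered the fit through the resting zone alone, and nothing is read from the count. *Cd44*, a hyaluronan receptor found on many cell types, had 53, 34, 69 and 61 counts in the resting zone and 9, 1, 1 and 1 in the proliferative zone (log2 fold change 4.63, adjusted p = 2.75e-11 in the wide fit). Mouse 1 held most of its proliferative zone counts, and without that mouse the log2 fold change was 5.85 in the wide fit and 5.98 in the filtered fit, where it was 4.82 with all mice. *Tnfrsf19*, a receptor of the tumor necrosis factor family, had 17, 6, 3 and 11 counts against 2, 0, 0 and 0, a ratio of 29.4 for the summed counts over summed totals (95% counting interval 7.59 to 252, adjusted p = 0.00114). Its call was lost without mouse 1, which held both proliferative zone counts (adjusted p = 0.0193), and without mouse 13 (adjusted p = 0.0296). Its fitted log2 fold change was 4.40 with all mice, 4.09 without mouse 13 and 5.89 without mouse 1, where no proliferative zone count was left and the fitted value depends on the prior count. *Prickle1*, a protein of planar cell polarity, had 6, 2, 10 and 1 counts against 45, 40, 57 and 16 (log2 fold change -2.86, adjusted p = 4.45e-05). Without mouse 13, only 1 of the 68 pathway genes was called in each direction, without mouse 6 there were 5 called higher in the resting zone, and without mouse 1 there was 1 called higher in the proliferative zone.

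**Figure D4:**
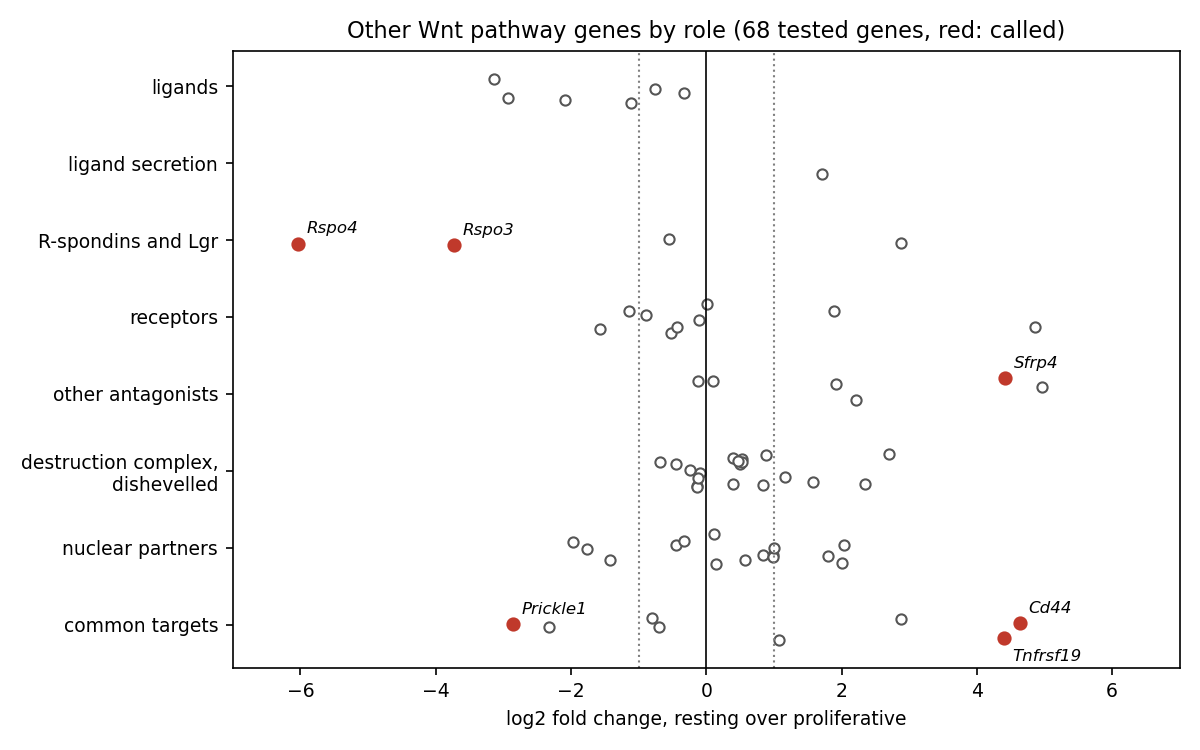
Log2 fold change, resting over proliferative zone (x axis), of the 68 other Wnt pathway genes of the wide fit by role (y axis; points are spread within a row for legibility), with called genes in red and dotted lines at -1 and 1. The 6 called genes were *Sfrp4*, *Cd44* and *Tnfrsf19* on the resting side and *Rspo3*, *Rspo4* and *Prickle1* on the proliferative side.

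The labelled cell types were checked against marker lists, and the resting zone libraries carried genes of bone and blood cells beside those of chondrocytes. Chondrocyte markers summed to 6824 to 17239 CPM in the resting zone and 31436 to 56130 CPM in the proliferative zone, with 9 of 10 called lower in the resting zone. Markers of resting chondrocytes summed to 555 to 1399 CPM in the resting zone and 386 to 721 CPM in the proliferative zone and were higher in the resting zone of 3 of 4 mice, with mouse 2 the exception. In the wide fit, 5 of 7 of these markers were called toward the resting zone and 1 toward the proliferative zone, and *Pthlh*, *Clu* and *Gas1* had no count in the proliferative zone. The study cites earlier reports for several of these markers, but it also named them from the same libraries. Osteoblast and osteocyte markers summed to 9297 to 36994 CPM in the resting zone and 620 to 3961 CPM in the proliferative zone, with 6 of 9 called higher in the resting zone. Hypertrophic markers summed to 745 to 1999 CPM against 1203 to 1858 CPM, and 2 of 7 were called higher and 4 lower in the resting zone.

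Osteoclast markers summed to 1496 to 4549 CPM against 14.4 to 445 CPM with 6 of 7 called, erythroid markers to 1811 to 12027 CPM against 0 to 1716 CPM with 7 of 7 called, and neutrophil markers to 3052 to 3921 CPM against 0 to 551 CPM with 7 of 8 called, all higher in the resting zone. Macrophage markers (925 to 1057 against 193 to 481 CPM, 5 of 6 called), endothelial markers (221 to 355 against 78.8 to 144 CPM, 5 of 7 called) and marrow stroma markers (145 to 441 against 1.60 to 50.5 CPM, 3 of 7 called) pointed the same way. These sums were higher in the resting zone of 4 of 4 mice, as were *Wif1*, *Lef1* and *Tcf7l2*, and *Sost*, *Mepe*, *Elane*, *Mpo*, *Pecam1* and *Kdr* were at 0 in the proliferative zone. Markers at 0 there, such as *Elane*, *Mpo* and *Sost*, entered the wide fit through the resting zone alone. Over all genes of that fit, 5.96% were called toward the resting zone and 3.88% toward the proliferative zone. Nothing is read from the numbers of markers called in these lists. The part of these cells in the values of *Wif1*, *Lef1*, *Tcf7l2*, *Dkk3*, *Notum*, *Sfrp4*, *Tnfrsf19* and *Cd44* was not tested. The share of counts on mitochondrial genes was also higher in the resting zone of 4 of 4 mice (5.47% to 7.20% against 4.09% to 6.27%). Its relation to these genes was not tested.

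**Figure D5:**
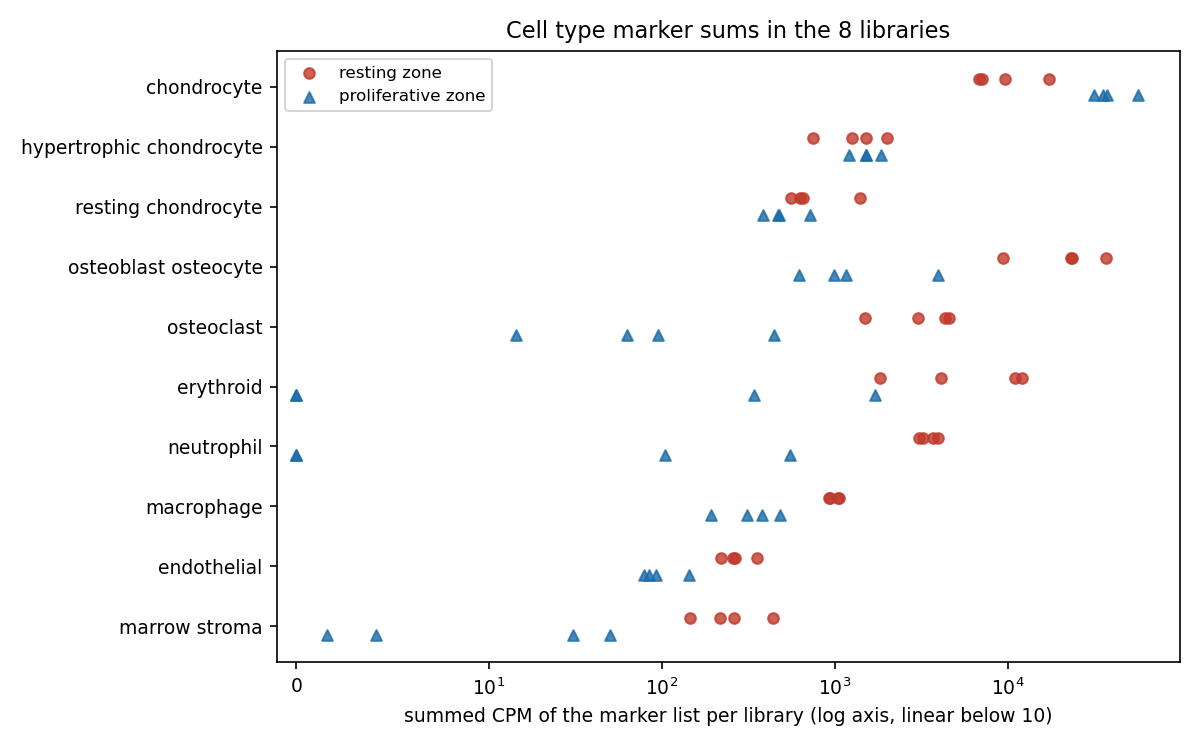
Summed CPM of 10 cell type marker lists (x axis, log scale, linear below 10) in each library, with circles for the resting zone and triangles for the proliferative zone. Chondrocyte markers were lower in each resting zone library, and the markers from osteoblasts to marrow stroma were higher in the resting zone of 4 of 4 mice.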

How the data were processed

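Per the labels and the methods, the authors aligned trimmed reads to GRCm38 with HISAT2 2.1.0, counted them per Ensembl gene with HTSeq 0.11.2, and deposited the counts as whole numbers without normalization. Their second table, from which gene names alone were taken, also holds scaled values per library, log2 fold changes and p-values of their own comparison, and these were not used. The genes *Axin2*, *Dkk3* and *Notum* were named from GENCODE M21, whose GRCm38 coordinates are given.

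The counts were analysed with edgeR 4.0.16 in R 4.3.3 (TMM factors 0.934 to 1.09, quasi-likelihood test with mouse as block plus zone, Benjamini-Hochberg adjustment over all genes of a fit). The filtered fit used edgeR's filter by zone (minimum count 10, minimum total 15), the wide fit a minimum total of 10 counts. Thresholds were those of the study's methods. The labels tie libraries of equal number to 1 animal, and after removal of zone means their correlation across genes was 0.195, 0.0104, 0.144 and 0.0636 in mice 1, 2, 6 and 13, against -0.0624 to -0.00499 with other mice. The counts of every pair of libraries differed by more than sampling noise.

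Alternatives were a fit without the block, the likelihood ratio test, DESeq2 1.42.0, other scalings and filters, other thresholds and each mouse left out. Fold differences against a limit of 3 counts and the values of called pathway genes without a mouse were added after seeing the data. All 10 genes were named, as were pathway genes called in the wide fit and, for each gene in the filtered fit, the 3 genes with the highest Pearson's r of log2 CPM (prior count 2). Other genes were named after their values were seen. The genes and lists were chosen with earlier results of these data known. *Axin2* selected the cells and was not tested. Figures were drawn with matplotlib 3.10.9 in Python 3.11.15.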

Additional observations from a re-analysis of the deposited data

Results flagged for a closer look

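In groups of 4 libraries, a library was singled out when its gap to the nearest of the others, as a share of the whole range, was above Dixon's 95% critical value. Of 17 groups of values, 2 held such a library, where chance gives about 1 in 20 groups, and 1 of these 2 rests on a single count. *Dkk3* in the resting zone had 58.9 CPM in mouse 13, against 0 to 6.08 CPM in the other mice, with a share of 0.897. *Axin2* in the proliferative zone had 1.94 CPM in mouse 1 and 0 in the others, which is a single count, so that the share of 1 is fixed by the counts and says nothing further about this library.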

How the results depend on the processing

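The called genes of the filtered fit (384 higher in the resting zone, 230 higher in the proliferative zone) were 232 and 78 when a log2 fold change of 1 was the null hypothesis, 584 and 411 at an adjusted p below 0.05, 672 and 437 with a minimum of 10 counts in total, and 659 and 445 with a minimum of 1. The likelihood ratio test called 396 higher in the proliferative zone. Without 1 mouse the numbers ranged from 151 to 349 and from 71 to 227, with the lowest numbers without mouse 13. The share of calls higher in the resting zone was 62.5% in the filtered fit, 51.7% with upper quartile factors and 72.0% with library size alone, which moved the median log2 fold change of all genes by -0.22 and 0.19. In the wide fit these shares were 60.6%, 51.0% and 76.3%, and the median moved by -0.18 and 0.31, and by 0.12 with relative log expression factors.

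Without the replicate block, 3 of the 10 genes of the set were called in the filtered fit in place of 1, *Wif1*, *Lef1* (adjusted p = 0.00483) and *Tcf7l2*, and the block moved no other call of the set. The likelihood ratio test also called 3, an adjusted p below 0.05 gave 3, DESeq2 gave 2, both lower count minimums gave 2, and leaving out a mouse gave 0 to 2, with 0 without mouse 13. In the wide fit 2 were called, 3 with the likelihood ratio test and at an adjusted p below 0.05 (*Dkk3* added), 3 with library size alone (*Tcf7l2* added), 1 with that null hypothesis, and 1 to 2 without a mouse. Other pathway genes called higher in the resting zone numbered 3, 6 with the likelihood ratio test, 6 with library size alone, 5 at an adjusted p below 0.05 and 1 to 5 without a mouse. Those higher in the proliferative zone numbered 3, 2 without the block, 1 with DESeq2 and 1 to 2 without a mouse. The interaction with sex was past the threshold for 21 genes and for 32 with the likelihood ratio test. *Frzb* reversed from -0.17 to 0.31 without the block, 0.16 with library size alone, 0.55 without mouse 1 and 0.06 without mouse 2 (range -1.20 to 0.55 without a mouse), and *Sfrp1* from -0.43 to 0.14 without mouse 6 (range -1.35 to 0.14). Without division by exon length 5 of 10 ranks in the resting zone and 8 of 10 in the proliferative zone were kept. The cause of these changes was not tested. Low counts leave *Axin2* and *Notum* outside both fits, and *Dkk3*, *Frzb*, *Sfrp1* and *Sfrp5* outside the filtered fit.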
